A study of Mus musculus with 6 samples.

Results

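Sox9, Lhx2, Nfatc1, Tbx1, Foxc1, Foxi3, Nfib, Runx1, Vdr and Gata3 are 10 transcription factors of hair follicle stem cells, and their RNA was measured in sorted mouse follicle cells after exposure to a carcinogen or its vehicle. The members were taken as every array probe whose RefSeq transcript belongs to one of these symbols. All 10 genes had a probe, 16 probes in all, out of 21368 genes with a named probe on the array. Male mice were depilated, then treated on the skin with acetone (vehicle) or with DMBA (7,12-dimethylbenz[a]anthracene, a polycyclic hydrocarbon that skin cells convert to DNA-damaging products). After 3 days, epidermal cells that were K15-EGFP(Hi), ITGA6(Hi) and negative for surface Sca1 were sorted, labelled as follicle stem cells with hair germ. There were 3 samples per treatment, from different mice, with 1 array each. The reporter, the depilation and the sort were shared by both groups, so the vehicle arrays are depilated and treated skin, not untouched skin. The cells are defined by a keratin 15 promoter reporter and surface markers, and strain and age are not given in the sources used here.

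Hair follicle stem cells rest in the bulge, below the sebaceous gland, and the hair germ beneath it is the first to divide when a new hair cycle begins. A small circuit of transcription factors holds them in this state. SOX9, LHX2, NFIB and TBX1 maintain the stem cells, NFATC1 and FOXC1 keep them quiescent, RUNX1 promotes their entry into growth, and FOXI3 acts in the placode and the hair germ. VDR, the vitamin D receptor, is needed for the follicle to cycle after birth, and GATA3 directs the inner root sheath lineage. NFIB in the stem cells also restrains signals to the neighbouring melanocyte stem cells, among them endothelin 2.

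Values are log2 processed spot intensities relative to the 75th percentile of the array, so 0 marks that percentile, and levels are compared between arrays for the same probe only. Precision is limited by the 3 arrays per group. The array carries 55681 probes, and the 44948 that exceeded background clearly on 3 or more of the 6 arrays, whatever their treatment, were kept for testing. All 16 member probes were well above background on all 6 arrays, as were 36011 of the 55681 probes on the array, so the filter on dim probes removed no member probe. The 75th percentile intensity was 1355 on DMBA 1 and from 1758 to 2274 on the other 5 arrays. Vehicle 1 was on a slide, and in a scan, of its own. The share of probes well above background ran from 77.0% to 83.6% on vehicle arrays and from 69.3% to 80.9% on DMBA arrays. Across kept probes, pairs of arrays within a treatment had a Pearson correlation of 0.928 to 0.941, and pairs across treatments 0.931 to 0.939. In RNA from sorted cells, fewer cells of a type and less RNA per cell cannot be told apart.

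Foxc1, Sox9, Tbx1 and a probe of Nfib gave lower values on every DMBA array than on every vehicle array, and Foxi3 gave higher values on every DMBA array. The group means of Lhx2, Vdr and Gata3 differed by 0.0011, 0.054 and 0.025. No member passed the threshold: with limma and Benjamini-Hochberg adjustment over all 44948 probes, adjusted p was 1.00 for each of the 16 probes. Nor did any other probe (0 of 44948, 0%, at an adjusted p under 0.05; smallest adjusted p 0.114). At an unadjusted p under 0.05, 2 member probes were lower after DMBA (background 2.22% of all kept probes) and 0 were higher (background 2.68%). The DMBA values lay all below the vehicle values in 4 of the 16 probes, against 4.25% of kept probes, and all above in 1, against 4.78%. The groups overlapped on the other 11. The 5 Nfib probes and the pairs for Nfatc1 and Runx1 share a gene, so the 16 probes are not independent. The median log2 difference was -0.11 over the member probes and 0.01 over all kept probes, and 9 member probes were lower and 7 higher. By the brightest probe of each gene, 5 members were higher and 5 lower, with a median of -0.04 against -0.01 over all genes. Counted so, the groups separated downward in 3 of the 10 genes (background 5.17% of genes) and upward in 1 (background 4.88%).

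**Figure D1:**
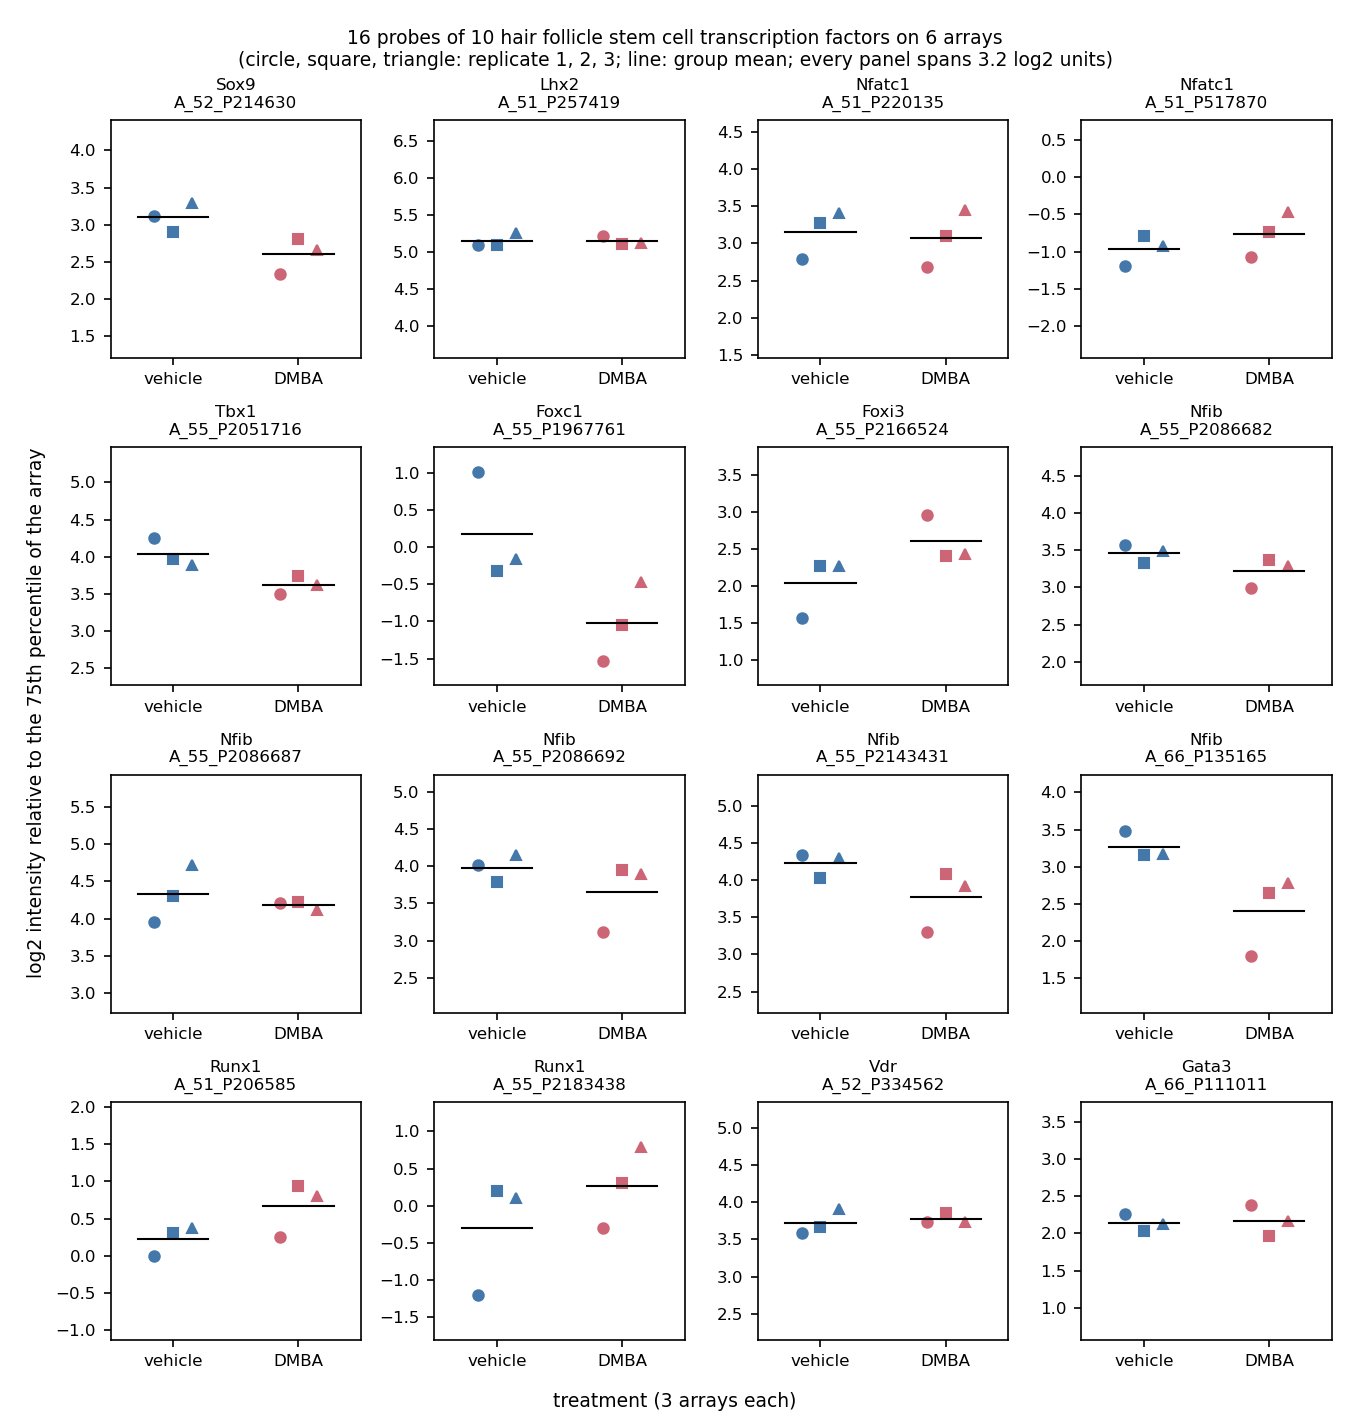
Log2 intensity relative to the 75th percentile of the array (vertical axis) for each of the 16 member probes in vehicle and DMBA samples, with 1 point per array, replicate 1 as a circle, 2 as a square and 3 as a triangle, and the group mean as a line. All panels span the same range of log2 units; Foxc1, Sox9, Tbx1 and Nfib probe A_66_P135165 show the DMBA points wholly below the vehicle points, and Foxi3 shows them wholly above.

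FOXC1 is the forkhead factor that restores quiescence to activated bulge cells and acts upstream of Nfatc1. Foxc1 (probe A_55_P1967761) read 1.02, -0.32 and -0.17 on vehicle 1 to 3 and -1.53, -1.04 and -0.48 on DMBA 1 to 3. All DMBA values lay below the vehicle values, DMBA 3 closest to them, and vehicle 1 stood well above the other vehicle arrays. The group means were 0.18 ± 0.73 (SD, n = 3) in vehicle and -1.02 ± 0.53 in DMBA. The log2 difference was -1.19 (SE 0.46; 95% interval from -2.32 to -0.06), a 2.29-fold lower mean. With limma, unadjusted p was 0.0416 and adjusted p was 1.00. Without vehicle 1, which leaves the 5 arrays of 1 slide, the difference was -0.77 and unadjusted p was 0.101, and without DMBA 1 it was -0.94 with unadjusted p at 0.125. This was the largest difference among the member probes, larger in absolute size than that of 93.2% of kept probes.

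TBX1, a T-box factor that supports self-renewal of the stem cells and dampens their BMP signalling, was among the genes whose groups separated. Tbx1 (probe A_55_P2051716) read 4.25, 3.97 and 3.89 in vehicle and 3.49, 3.74 and 3.62 after DMBA. Every DMBA array was below every vehicle array, DMBA 2 closest to vehicle 3. The log2 difference was -0.42 (SE 0.22; interval from -0.97 to 0.13), with limma's unadjusted p at 0.110 and adjusted p at 1.00. It ran from -0.49 to -0.31 when each array was left out.

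FOXI3 is a forkhead factor of the hair placode and the secondary hair germ. Foxi3 (probe A_55_P2166524) read 1.57, 2.27 and 2.27 in vehicle and 2.96, 2.41 and 2.43 after DMBA. The DMBA arrays all read higher, but vehicle 1 and DMBA 1 supplied the extremes, and the other 4 arrays lay between 2.27 and 2.43. The log2 difference was 0.56 (SE 0.31; interval from -0.19 to 1.31), with limma's unadjusted p at 0.117 and adjusted p at 1.00. Without vehicle 1 it was 0.33 and without DMBA 1 it was 0.38.

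Foxc1, Tbx1 and Foxi3 are the separating genes for which the RefSeq promoter table holds a window, and the 250 bases before each transcript start are shown, since this is the control sequence nearest to the RNA that was measured. Capitals mark matches, on either strand, to any of the motifs spelled out after the sequences except the NFAT core. In these windows they fall on the RUNX core TGTGGT and on GCGTG, the core bound by the aryl hydrocarbon receptor (AHR), which DMBA binds and whose motif was added after the data had been seen. Coordinates are GRCm38.p6 and each sequence is 5′ to 3′ on the strand of its gene.
Foxc1, chr13:31806396-31806645, plus strand: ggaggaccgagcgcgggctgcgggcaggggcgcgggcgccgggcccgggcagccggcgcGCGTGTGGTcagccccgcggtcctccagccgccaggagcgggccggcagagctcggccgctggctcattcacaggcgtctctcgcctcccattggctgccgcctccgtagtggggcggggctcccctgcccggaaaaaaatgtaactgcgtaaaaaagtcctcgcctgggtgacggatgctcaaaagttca
Foxi3, chr6:70956356-70956605, plus strand: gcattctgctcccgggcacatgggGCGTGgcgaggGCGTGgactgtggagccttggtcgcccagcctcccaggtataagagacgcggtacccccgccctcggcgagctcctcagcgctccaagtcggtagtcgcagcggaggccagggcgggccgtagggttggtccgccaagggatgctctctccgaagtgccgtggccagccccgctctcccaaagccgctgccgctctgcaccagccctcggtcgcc
Tbx1, upstream start, chr16:18590672-18590921, minus strand: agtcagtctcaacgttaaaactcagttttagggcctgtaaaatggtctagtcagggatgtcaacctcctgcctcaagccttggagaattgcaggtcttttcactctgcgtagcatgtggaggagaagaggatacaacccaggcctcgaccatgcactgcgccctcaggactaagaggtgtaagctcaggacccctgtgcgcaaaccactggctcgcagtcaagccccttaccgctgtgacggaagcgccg
Tbx1, downstream start, chr16:18588900-18589149, minus strand: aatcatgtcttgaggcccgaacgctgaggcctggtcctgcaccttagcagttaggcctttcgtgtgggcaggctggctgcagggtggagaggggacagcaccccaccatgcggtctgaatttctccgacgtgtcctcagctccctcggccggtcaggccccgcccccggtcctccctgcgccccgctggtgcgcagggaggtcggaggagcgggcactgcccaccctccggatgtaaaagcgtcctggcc
The Foxc1 window holds a RUNX core from -188 to -183, counted from the transcript start, and it overlaps an AHR core from -191 to -187. Foxi3 has AHR cores from -226 to -222 and from -215 to -211. Neither Tbx1 window holds any of these motifs. Among all 32851 windows of this length, 14.0% hold the RUNX core and 28.2% the AHR core. Windows were found for 7 of the 10 members, 10 windows in all, and 4 of the 10 hold the AHR core and 1 the RUNX core. The NFI element, searched as TTGGCA, occurs in 1 of the 10, a Runx1 window, and in 12.3% of all windows. The NFAT core, searched as GGAAA, occurs in 6 of the 10 and in 55.6% of all windows. The remaining motifs occur in 0 of the 10 windows. For the GATA factors the letters were AGATAA, held by 9.99% of all windows. For the forkhead factors they were TGTTTAC, held by 3.17%. The SOX motif was taken as ACAAAG, which 16.5% of windows hold. For LIM homeobox factors TAATTA was searched, and 4.84% hold it. The T-box motif was AGGTGTGA, found in 1.12%. The nuclear receptor element was AGGTCA, found in 14.0%. These windows are rich in G and C, 70.8% for Foxc1, 70.4% for Foxi3 and 54.4% and 67.2% for the upstream and downstream Tbx1 starts, against a median of 52.4%. A match describes letters, and binding was not measured.

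SOX9, an HMG-box factor without which the bulge stem cell pool is not kept, was read by a probe printed as 10 spots on each array, of which 8 to 10 were free of outlier flags. Sox9 (probe A_52_P214630) averaged 3.12, 2.91 and 3.29 in vehicle and 2.33, 2.81 and 2.67 after DMBA. The groups did not overlap, but vehicle 2 and DMBA 2 were close, and the lowest spot of vehicle 2 (2.861) lay below the highest spot of DMBA 2 (2.865). Spots of the same array had SDs from 0.025 to 0.050, smaller than the SD between arrays of 0.19 in vehicle and 0.25 in DMBA. With 1 array per sample, differences between mice and between hybridisations cannot be told apart in the latter. Its log2 difference was -0.50 (SE 0.25; interval from -1.10 to 0.10), a 1.41-fold lower mean, with limma's unadjusted p at 0.0879 and adjusted p at 1.00. It ran from -0.60 to -0.36 when each array was left out.

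NFIB, a nuclear factor I protein that with NFIX maintains the chromatin of the stem cells, was read by 5 probes, and all 5 had lower means after DMBA. Probe A_66_P135165 read 3.48, 3.16 and 3.17 in vehicle and 1.80, 2.64 and 2.79 after DMBA. All DMBA values of that probe were below the vehicle values, and DMBA 1 was the lowest by far. The log2 difference was -0.86 (SE 0.33; interval from -1.66 to -0.06), a 1.82-fold lower mean, with limma's unadjusted p at 0.0388 and adjusted p at 1.00. Without DMBA 1 it was -0.56, with unadjusted p at 0.0534. On the other 4 probes the groups overlapped. Their differences were -0.46 (SE 0.29) for A_55_P2143431, -0.33 (SE 0.31) for A_55_P2086692, -0.24 (SE 0.23) for A_55_P2086682 and -0.15 (SE 0.27) for A_55_P2086687. Without DMBA 1 the first 3 of these were -0.22, -0.066 and -0.13. The last of these is assigned to a different RefSeq transcript from the other 4 probes. DMBA 1 was the lowest of the 6 arrays on 4 of the 5 probes, and A_55_P2086687, on which vehicle 1 was lowest, read 3.95, 4.31 and 4.72 in vehicle and 4.21, 4.22 and 4.12 after DMBA. The size of the Nfib difference thus depended on the probe.

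**Figure D2:**
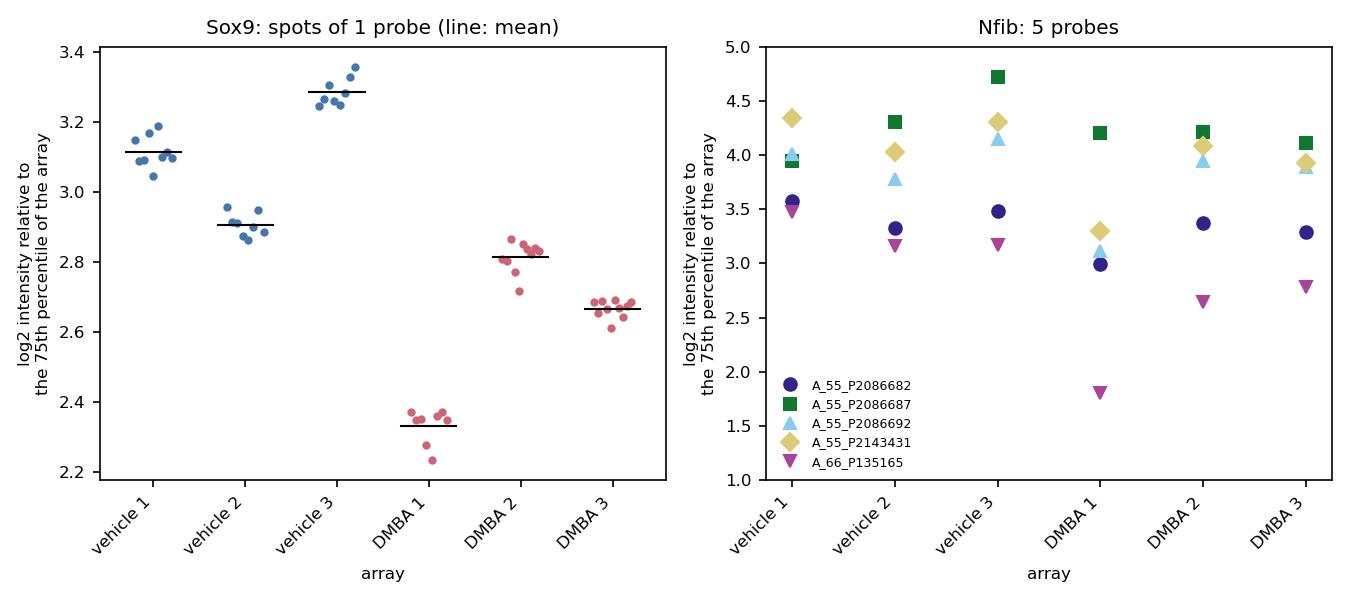
Left, log2 intensity relative to the 75th percentile of the array (vertical axis) for each unflagged Sox9 spot on each array (horizontal axis), with the array mean as a line, vehicle in blue and DMBA in red; right, the 5 Nfib probes on the same arrays. Sox9 spots of an array cluster tightly while arrays differ, and 4 of the 5 Nfib probes have their lowest value on DMBA 1.

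LHX2, the LIM homeobox factor that patterns the bulge and restrains its activation, was the steadiest member. Lhx2 (probe A_51_P257419) read 5.09, 5.10 and 5.26 in vehicle and 5.22, 5.11 and 5.12 after DMBA. The groups overlapped and their SDs were 0.10 and 0.06. The log2 difference was 0.00 (SE 0.21), and the interval from -0.50 to 0.50 leaves room for a change of that size in either direction. Its sign turned under the quantile and median scalings (-0.08 and -0.06).

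NFATC1, whose activity downstream of calcineurin keeps bulge cells out of division by repressing Cdk4, had a bright and a dim probe assigned to different transcripts. The bright Nfatc1 probe A_51_P220135 read 2.79, 3.27 and 3.41 in vehicle and 2.68, 3.09 and 3.44 after DMBA. The dim probe A_51_P517870 read -1.19, -0.79 and -0.92 in vehicle and -1.07, -0.74 and -0.47 after DMBA. Both overlapped between groups, with log2 differences of -0.08 (SE 0.31; interval from -0.83 to 0.66) and 0.21 (SE 0.26; interval from -0.43 to 0.85). On both probes replicate 1 was the lowest array of its group.

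RUNX1 promotes the step from rest to growth and represses Cdkn1a in these cells. Runx1 probe A_55_P2183438 read -1.20, 0.19 and 0.10 in vehicle and -0.30, 0.31 and 0.79 after DMBA, and probe A_51_P206585 read -0.00036, 0.31 and 0.38 in vehicle and 0.26, 0.94 and 0.81 after DMBA. On each probe DMBA 1 fell within the range of the vehicle arrays, and DMBA 2 and 3 lay above them. The differences were 0.56 (SE 0.49; interval from -0.62 to 1.75) and 0.44 (SE 0.28; interval from -0.23 to 1.11). Without DMBA 1 they were 0.85 and 0.65, and the second then had an unadjusted p of 0.0365 in limma. Without vehicle 1 they were 0.12 and 0.33.

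Vdr (probe A_52_P334562) read 3.58, 3.67 and 3.91 in vehicle and 3.74, 3.85 and 3.74 after DMBA. Gata3 (probe A_66_P111011) read 2.26, 2.04 and 2.13 in vehicle and 2.37, 1.96 and 2.17 after DMBA. In both genes the groups overlapped throughout. Their log2 differences were 0.05 (SE 0.22; interval from -0.47 to 0.58) and 0.03 (SE 0.23; interval from -0.53 to 0.58), and both turned sign with median centring (-0.010 and -0.039).

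**Figure D3:**
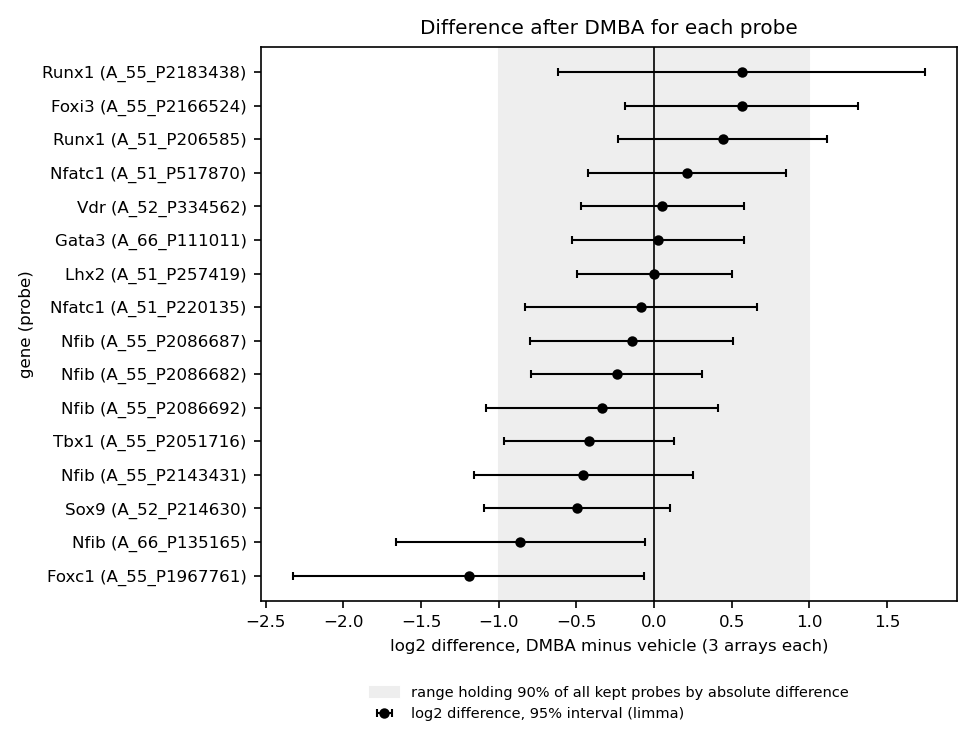
Log2 difference, DMBA minus vehicle (horizontal axis), for each member probe (vertical axis), with its 95% interval from limma over 3 arrays per group; the grey band, which reaches 0.996 to either side of 0, holds 90% of all kept probes. The intervals of Foxc1 and of Nfib probe A_66_P135165 lie below 0 before adjustment for the number of probes, and the other 14 intervals include 0.

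The lowest values of the member probes, but not the highest, fell mostly on DMBA 1 and vehicle 1, which were on different slides. DMBA 1 was the lowest array on 8 of the 16 probes (50%) and vehicle 1 on 7 (43.8%), against 11.9% and 15.4% of all kept probes. Probes of a gene are counted separately here. Nfib supplied 4 of the 8 for DMBA 1, and the 7 for vehicle 1 include 1 Nfib probe and both Runx1 probes. The highest value fell on vehicle 1 in 5 member probes (31.2%, against 19% of all kept probes) and on vehicle 3 in 5 (31.2%, against 13.2%). It fell on DMBA 3 in 3, on DMBA 1 in 2 (12.5%, against 32.9%) and on DMBA 2 in 1. The 4 members lower after DMBA (Foxc1, Sox9, Tbx1 and Nfib, by probe A_66_P135165) each had their lowest value on DMBA 1, and Foxi3 had its highest there. DMBA 1 was also the array with the lowest overall intensity, and vehicle 1 lay on its own slide. The part of either in the differences was not tested. Without DMBA 1 the differences were -0.94 for Foxc1, -0.36 for Sox9, -0.36 for Tbx1, -0.56 for the Nfib probe and 0.38 for Foxi3. The groups of these 5 probes do not overlap, so leaving out an array could change the size of a difference but not its direction.

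**Figure D4:**
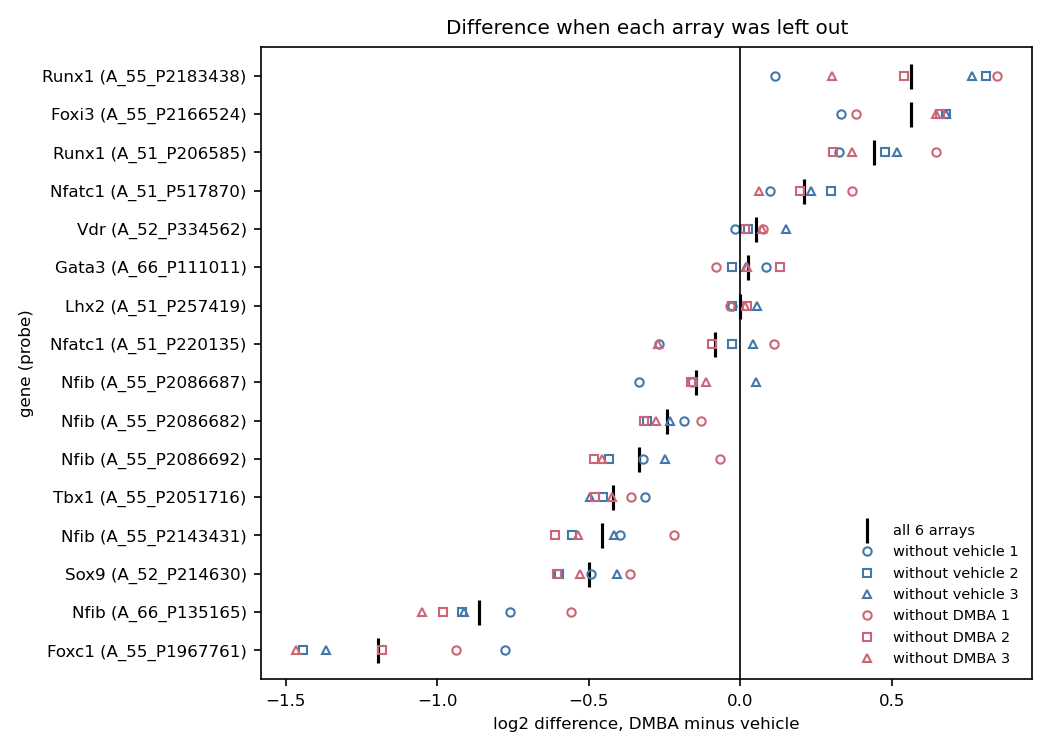
Log2 difference, DMBA minus vehicle (horizontal axis), for each member probe (vertical axis) over all 6 arrays (black bar) and when each array was left out (open symbols, blue for vehicle and red for DMBA, circle, square and triangle for replicate 1, 2 and 3). The circles, replicate 1 of either group, sit nearest to 0 for Foxc1, Foxi3, Tbx1 and 3 of the Nfib probes.

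Of the genes reported as targets of the members or linked to them in follicle or epidermal cells, 14 of 14 were kept, and 0 passed over all probes. By the brightest probe of each gene, 7 were higher and 7 lower, with a median of 0.09 against -0.01 over all 17844 genes with a kept probe. At unadjusted p under 0.05, 1 was higher (background 2.56% of genes) and 2 lower (background 2.36%). The groups separated upward in 1 (background 4.88% of genes) and downward in 2 (background 5.17%). Edn2, the endothelin that NFIB restrains in these cells, read 2.35, 2.15 and 2.80 in vehicle and 0.87, 1.74 and 1.39 after DMBA. All DMBA values were below the vehicle values, and DMBA 1 was again lowest (log2 difference -1.10, SE 0.33, unadjusted p = 0.0145 and adjusted p = 0.861 in limma). Edn2 and Nfib were thus both lower in mean, and the link between them was not tested. Lgr5, a stem cell receptor gene linked to LHX2, read 3.48, 3.10 and 3.34 in vehicle and 2.63, 2.75 and 2.63 after DMBA, all below the vehicle values (-0.64, SE 0.22, unadjusted p = 0.0266 and adjusted p = 0.948 in limma). Cdkn1a, the p21 gene that RUNX1 represses, read -0.09, 0.74 and 0.88 in vehicle and 2.42, 2.46 and 2.30 after DMBA. All 3 DMBA arrays were higher and lay close together, with a log2 difference of 1.88 (SE 0.32; limma's adjusted p = 0.498), and 2.96 on the other Cdkn1a probe. Cdkn1a is also a target of p53, and the link to Runx1 was not tested.

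By the brightest probe, the other linked genes overlapped between groups. Cdk4, the NFATC1 target, had a difference of 0.17 (SE 0.30, and 0.38 and 0.08 on its other probes). Ccnd1, the cyclin D1 gene, had 0.20 (SE 0.24). Prlr, the prolactin receptor gene, had 0.86 (SE 0.60, but -0.21 on its other probe). Bmp6, a quiescence signal linked to FOXC1, had -0.47 (SE 0.31). Fgf18, another such signal, had 0.97 (SE 1.34, and 0.32 on its other probe). Inhbb, an activin subunit gene linked to SOX9, had -0.17 (SE 0.27). Tcf7l2, which encodes the Wnt effector TCF4, lay at -0.0015 (SE 0.38, and 0.17 and -0.15 on its other probes). Hr, the hairless corepressor of VDR, lay at -0.02 (SE 0.40), and Cyp24a1, the classical vitamin D target, was well above background on 2 arrays of each group (0.80, SE 1.59). Eda and Edar encode the ectodysplasin ligand and receptor upstream of Foxi3 in the placode. Eda had a difference of -0.51 (SE 0.62, but 0.36 on its other probe). Edar had 0.24 (SE 1.25) and was well above background on 2 vehicle arrays.

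Dimer partners, cofactors and calcineurin subunits were kept for 17 of 19 genes. Of these 5 were higher and 12 lower, with a median of -0.17. None passed over all probes, and 2 were lower at unadjusted p under 0.05 (background 2.36% of genes). The groups separated in 3, all lower after DMBA (background 5.17% of genes), and in 0 in the other direction (background 4.88%). Ncor1, a nuclear receptor corepressor, read 0.89, 0.84 and 1.30 in vehicle and -0.07, 0.48 and 0.47 after DMBA (-0.71, SE 0.27). Other Ncor1 probes gave 0.90 and 0.03, so this direction held for the brightest probe alone. Ppp3cb, a catalytic subunit of calcineurin, differed by -0.59 (SE 0.24) and Tle3, a Groucho corepressor, by -0.32 (SE 0.21).

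Among 25 other transcription factors of the follicle and epidermis, all kept, 9 were higher and 16 lower (median -0.03), and 0 passed over all probes. At unadjusted p under 0.05, 1 was higher (background 2.56% of genes) and 0 lower (background 2.36%). The groups separated upward in 2 (background 4.88% of genes) and downward in 1 (background 5.17%). Foxn1, the forkhead factor mutated in nude mice, which have no visible hair, read -2.04, -1.66 and -2.38 in vehicle and -1.59, 0.49 and -0.10 after DMBA (1.63, SE 0.56, unadjusted p = 0.0268 and adjusted p = 0.948 in limma). The DMBA arrays were all higher, DMBA 1 by the least. Hopx, a homeodomain protein gene expressed in the bulge, had a difference of 0.55 (SE 0.33; 0.52 on its other probe), and the groups separated. Hopx was highest on DMBA 1, and without that array its difference was 0.25. Dlx3, a factor of the hair matrix, separated downward by a small -0.13 (SE 0.20). Relatives of the members within their families were kept for 20 of 25 genes, with 11 higher, 9 lower and a median of 0.02. None of them separated the groups. Those with the smallest p were Runx2 (0.50, SE 0.43; -0.84 on its other probe) and Nfatc3 (-0.28, SE 0.25; -0.26 on its other probe). Foxc2, Gata4 and Sox8 were well above background on 0 arrays.

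The label of the sorted cells was checked against bulge and hair germ markers other than transcription factors. All 14 measured, among them Krt15, Cd34, Itga6, Lgr5, Col17a1 and Postn, were well above background on all 6 arrays. Over the whole array, 36011 of 55681 probes were so. The summed signal of the 14 markers on the log2 scale ran from 8.40 to 8.60 in vehicle and from 8.47 to 9.04 after DMBA. Krt14 and Krt5, keratin genes on this list with vehicle means of 7.30 and 6.54, made up most of that sum. The epidermal and sebaceous markers were also present, 11 of 11 on all 6 arrays (6.29 to 6.93 in vehicle, 6.49 to 6.98 after DMBA), Ly6a, the Sca1 gene, among them. Presence of the stem cell markers alone thus does not set these cells apart from other epidermal cells. Melanocyte markers were well above background on all arrays for 7 of 8 genes (1.56 to 2.16 and 2.05 to 2.76), and hair matrix and inner root sheath markers for 8 of 10 (3.37 to 3.87 and 3.67 to 4.06). Leukocyte markers were so for 8 of 10 (6.52 to 6.85 and 6.46 to 7.15, or 1.45 to 2.99 and 1.74 to 1.95 without Itgam, whose probe made up most of the sum). Fibroblast and dermal papilla markers were so for 6 of the 7 kept (0.96 to 2.35 and 2.02 to 2.33), with Pdgfra and Sox2 on 0 arrays, and endothelial markers for 4 of the 6 kept (1.70 to 2.04 and 1.48 to 1.88). The ranges of vehicle and DMBA overlapped in each of these lists. Of the 8 melanocyte markers, 3 had higher and 5 lower means after DMBA, with a median difference of -0.06. The 2 melanocyte markers with the smallest p were Mlana and Tyrp1, both pigment cell genes, with higher means after DMBA by 2.72 (SE 0.96; unadjusted p = 0.0291 in limma) and 3.35 (SE 1.34; unadjusted p = 0.0455). Their groups overlapped, since vehicle 2 read within the DMBA range for both, and Tyrp1 was well above background on 1 vehicle array. Over all genes, the groups separated upward in 4.88% and downward in 5.17%. In the other lists they separated upward in 2 of 7 fibroblast and dermal papilla markers and 1 of 11 epidermal and sebaceous markers. They did so too in 1 of 10 hair matrix and inner root sheath markers and 2 of 14 stem cell markers. Downward separation was seen in 1 of 10 leukocyte, 1 of 6 endothelial and 1 of 14 stem cell markers. These counts were not tested against the background. Dcn and Col1a1, matrix genes of fibroblasts, were higher on all DMBA arrays by 1.51 (SE 0.25) and 1.29 (SE 0.58), and Ly6a by 1.45 (SE 0.46). Of the 7 fibroblast and dermal papilla markers kept, 5 had higher means and 2 lower, Col3a1 (-0.52) and Twist2 (-0.43). Of the 11 epidermal and sebaceous markers, 7 were higher and 4 lower. Tchh, the trichohyalin gene of the inner root sheath, was higher by 3.24 (SE 0.60) but was well above background on 1 vehicle array only. Of the 10 hair matrix and inner root sheath markers, 6 were higher and 4 lower. H2-Aa, an MHC class II gene, and Egfl7, an endothelial gene, were lower on all DMBA arrays by differences of -0.49 (SE 0.24) and -0.73 (SE 0.31). Leukocyte markers were higher in 6 and lower in 4, and endothelial markers higher in 2 and lower in 4. Ccn2 and Fst, secreted factors among the stem cell markers, were higher on all DMBA arrays by 0.66 (SE 0.28) and 0.82 (SE 0.32). Lgr5, on the same list, was lower on all DMBA arrays (-0.64, SE 0.22). Of the 14 stem cell markers, 9 had higher means after DMBA and 5 lower, with a median of 0.12. The part of other cells in the values of the members was not tested.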

How the data were processed

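RNA was measured on 1-colour Agilent arrays in 3 vehicle and 3 DMBA samples. Per the labels' protocols, Cy3 was the dye and RNA came from RNeasy Micro columns. Feature Extraction 10.7.1.1 (Agilent) quantified the spots, per the submitters' processing notes, and the headers name mm9 for the probe annotation. The deposited scanner output holds processed spot intensity. The authors' deposited matrix holds linear intensity scaled near each array's 75th percentile (column medians from 0.154 to 0.172) and served as an alternative.

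With limma 3.58.1 in R 4.3.3, the 3671 control spots were dropped, flagged outlier spots were treated as missing (45 probe values, none of a member), and spots of a probe were averaged. Probes were named by RefSeq accession through GRCm38.p6 (28331 named), and the arrays give no sequence. DMBA was compared with vehicle by lmFit and eBayes, two-sided, without covariates, and adjusted by Benjamini-Hochberg over all 44948 kept probes at 0.05. Lists used the brightest kept probe of each gene. The fit was tested on simulated data.

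Named genes were all members and linked genes, and from each other list up to 4 whose groups separate, by size of difference, with the higher group well above background, or the 2 of smallest p, and of the cell type markers those that moved. Members and lists were chosen with earlier results of these data known. The normexp alternative used median spot signals. Same-numbered arrays did not deviate together (r = 0.027, -0.0084 and 0.040), so replicate numbers were not used as pairs.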

Additional observations from a re-analysis of the deposited data

How the results depend on the processing

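Over all alternatives, 0 member probes passed the adjusted threshold. With normexp background correction, 3 of all kept probes passed it, and with every other alternative 0 did. The 2 member probes at unadjusted p under 0.05 became 1 with 1 probe per gene, a fit that leaves out Nfib probe A_66_P135165. They became 0 with the slide as a block and 0 with the replicate block. Vehicle 1 was alone on its slide, so the slide block gives the same differences as leaving out that array. The count was 4 when each array's share of probes above background was a covariate (Sox9 and 3 Nfib probes). That covariate also moved the median over all probes to 0.16. When each array was left out the count ran from 0 to 2. Foxc1, Sox9, Tbx1, Foxi3, both Runx1 probes, the dim Nfatc1 probe and 4 of the 5 Nfib probes kept their direction in every alternative that held them. The groups of Foxc1, Sox9, Tbx1, Foxi3 and Nfib probe A_66_P135165 do not overlap. For these, leaving out an array could not turn the direction. With that covariate, however, the Runx1 differences were 0.079 and 0.041, close to 0, and those of Nfatc1 were -0.41 for the bright probe and 0.0073 for the dim one. Lhx2 was -0.041 with normexp, -0.079 with quantile normalization, -0.063 with median centring, -0.0041 in the deposited table and -0.028 with the slide as a block. Gata3 was -0.0061 with normexp and -0.039 with median centring. Vdr was -0.010 with median centring, -0.016 with the slide as a block and -0.072 with the covariate. Edar was -0.084 with normexp and Hr 0.012 with quantile normalization. When each array was left out, the range was -0.033 to 0.057 for Lhx2, -0.078 to 0.13 for Gata3, -0.016 to 0.15 for Vdr, -0.27 to 0.11 for the bright Nfatc1 probe, -0.33 to 0.053 for Nfib probe A_55_P2086687, -0.073 to 0.31 for Cdk4, -0.53 to 2.07 for Cyp24a1, -1.11 to 1.46 for Edar, -0.22 to 2.01 for Fgf18, -0.24 to 0.42 for Hr and -0.39 to 0.22 for Tcf7l2. The causes of these changes were not tested.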
